A study of Homo sapiens with 16 samples.

Results

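The genes described here are 10 of the NF-kB pathway: 4 subunits of the transcription factor (RELA, NFKB1, RELB and NFKB2), the inhibitor NFKBIA, the deubiquitinase TNFAIP3 with its partners TNIP1 and TNIP3, and the TNF-inducible genes BIRC3 and TNFAIP8. They were chosen by gene symbol, all 10 were found among the 60564 genes of the deposited table, and all 10 were among the 16241 genes tested. The measurement was SLAM-seq in THP-1, a human monocytic leukaemia cell line, in which newly made RNA carries 4-thiouridine (4sU) that is read as T-to-C conversions in sequencing. Cells were either wild type, called control here, or carried a knockdown of the m6A demethylase ALKBH5 that the labels call A5-KD; the agent used for the knockdown is not given in the sources used here. Both genotypes were labelled for 1 h with 100 µM 4sU, then washed and chased in 10 mM uridine for 0, 1.5, 4.5 or 7.5 h. Each of the 8 groups held 2 libraries, 16 in all. The labels do not say whether the 2 libraries of a group were grown apart, so the p-values measure the spread between these libraries, which may be technical. No stimulus of the NF-kB pathway is named in the labels.

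NF-kB is a family of dimeric transcription factors that wait in the cytoplasm bound to IkB proteins. Receptors of TNF, interleukin 1 and bacterial products activate the IKK kinases, which mark IkB for destruction and free the dimers to enter the nucleus. Among the genes then transcribed are those for the pathway's own brakes, chiefly NFKBIA and TNFAIP3, and a brake encoded by a short-lived mRNA can be withdrawn soon after transcription stops. ALKBH5 is an eraser of m6A, the methylated adenosine of mRNA that reader proteins bind, some of which promote decay.

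Each value is the T-to-C conversion rate of a gene in a library, given in percent of its sequenced T bases. The rate is a ratio, so it falls where labelled molecules become a smaller share of the gene's RNA, as when molecules made during the chase replace them. Loss that takes labelled and unlabelled molecules alike, without new ones, leaves it unchanged. The rate says nothing of how abundant a gene's RNA is. The number of T bases behind it is unknown, so no counting interval can be given. The median rate over all tested genes stood at 46.0% of its 0 h value after 7.5 h in control and at 45.1% in knockdown. Knockdown libraries had rates about 2.03-fold those of control over all genes (median genotype effect 1.02 log2), so effects are also given after centring each library on its own median log2 rate. Of 13 monocytic and myeloid marker genes 12 had at least 1 CPM in the single abundance column, with MPO at 0.185, whereas markers of T cells and fibroblasts reached at most 0.132 CPM, and those of B, epithelial and erythroid cells at most 5.87. ALKBH5 itself had rates of 0.812% and 0.386% in control and 3.31% and 2.46% in knockdown at 0 h, and 0.0982% and 0.191% against 0.108% and 0.149% at 7.5 h. These rates do not measure how much ALKBH5 RNA was left. Gene positions are from GENCODE 29 on GRCh38.

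The first question was how fast these mRNAs lost label. In control, 9 of the 10 members fell over the chase and 0 rose, against 34.4% of all tested genes falling and 3.45% rising (limma, adjusted p under 0.05). In knockdown 7 of 10 fell and 0 rose, against 37.9% and 4.06%. Of all 16241 tested genes, 6148 in control and 6810 in knockdown were called in either direction. With a CPM minimum of 5, which all 10 members exceed, they were 5202 and 5812 of 10549 genes, a larger share. The member counts stayed at 9 and 7. The slope of log2(rate + 0.05 percentage points) per hour had a median of −0.23 over the members in control and −0.21 in knockdown, beside −0.11 and −0.13 over all tested genes. In both genotypes both 7.5 h libraries lay below both 0 h libraries for all 10 members, against 49.8% of all tested genes in control and 57.5% in knockdown. After centring, which took a common slope of −0.14 in control and −0.15 in knockdown from every gene, 5 members fell relative to the common fall in control and 4 in knockdown, and 0 rose in either (9.46% and 8.62% of all tested genes were called lower, 17.6% and 17.7% higher). BIRC3, TNFAIP8 and NFKBIA were among the called members in both. The centred control call of NFKBIA (−0.13, adjusted p = 0.0380) ended without control 0 h replicate 1 or 2, 1.5 h replicate 2, 4.5 h replicate 1 or 2, or 7.5 h replicate 2 (adjusted p up to 0.141). That of TNFAIP3 ended without any of 11 of the 16 libraries (adjusted p up to 0.159). Without control 0 h replicate 1 or 2 or control 4.5 h replicate 2 the control count was 3. With no CPM minimum, under which library medians reach 0, all 5 centred control calls ended, among them BIRC3 (−0.045, adjusted p = 0.625), TNFAIP8 (−0.055, adjusted p = 0.518) and TNIP3 (−0.38, adjusted p = 0.0522). The 1 member then called in control was NFKB2, higher than the common fall. In knockdown that of TNFAIP8 held, and those of BIRC3 (adjusted p = 0.155), NFKBIA (0.213) and NFKB1 (0.290) ended. TNFAIP3 and TNIP3 were called in control and NFKB1 in knockdown, and whether these lists differ between genotypes was tested only through the slope difference given further down.

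**Figure D1:**
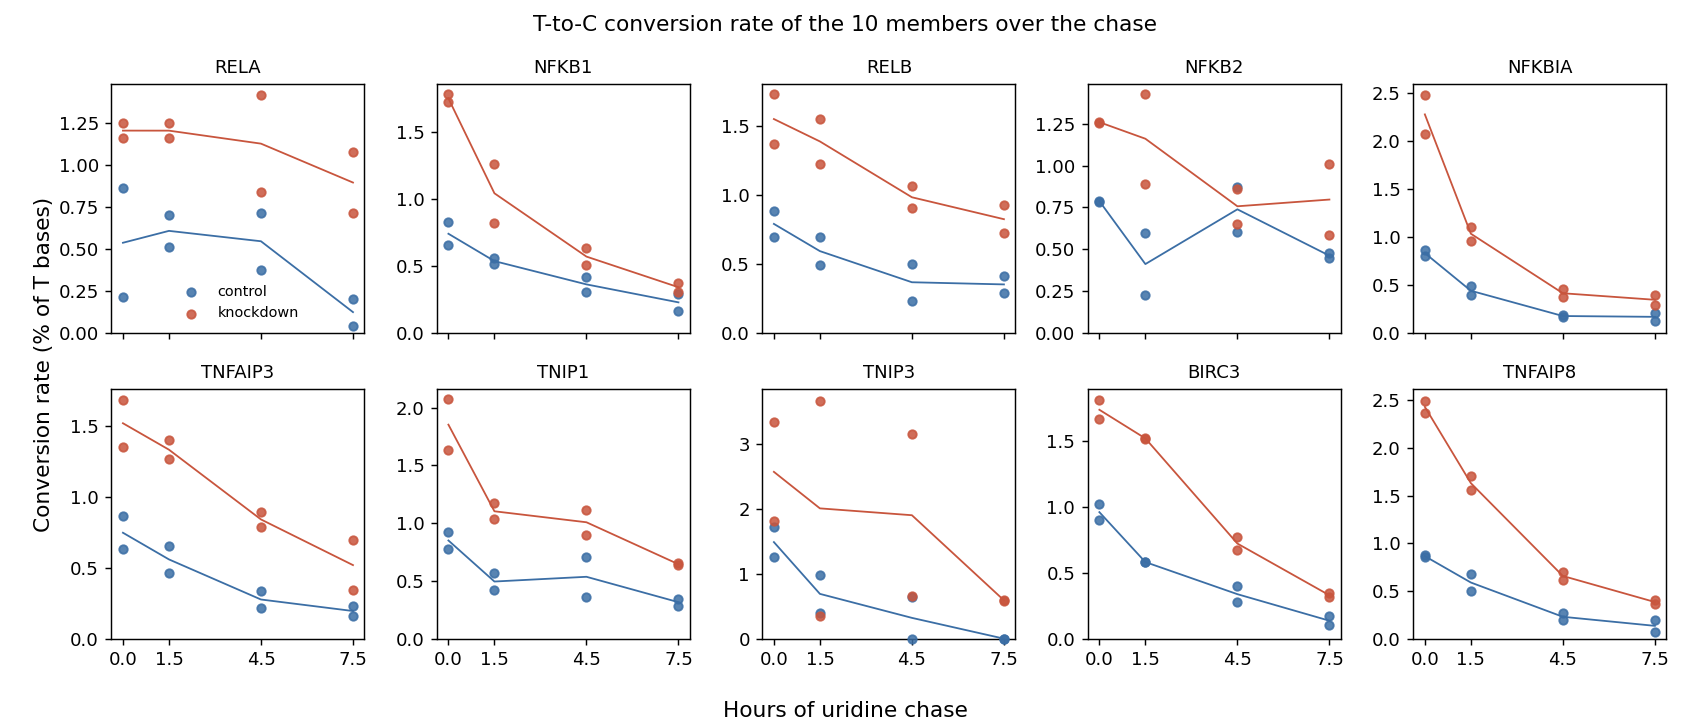
Conversion rate in percent of T bases (vertical axis, linear) against hours of chase, one panel per gene, with a point for each library and a line through the group means of 2 libraries. The NFKBIA rate drops to 53.1% of its 0 h mean in control and 45.5% in knockdown by 1.5 h. In control NFKB2 (52.4%) and TNIP3 (46.4%) drop at least as far by then. At 7.5 h RELA keeps 74.4% in knockdown and 23.4% in control.

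NFKBIA (ENSG00000100906, chr14:35401511-35404749) encodes IkB-alpha, the inhibitor that holds RELA-containing dimers in the cytoplasm and is resynthesised as the main fast feedback. Its rate in control was 0.864% and 0.803% at the start, 0.394% and 0.491% after 1.5 h, 0.168% and 0.191% after 4.5 h and 0.216% and 0.127% after 7.5 h. The knockdown libraries gave 2.48% and 2.07% at the start, 1.11% and 0.963% after 1.5 h, 0.376% and 0.457% after 4.5 h and 0.297% and 0.399% after 7.5 h. Both libraries of each later group lay below both of 0 h, and the 4.5 h and 7.5 h values overlapped. As a share of the 0 h mean, control kept 53.1% at 1.5 h, 21.5% at 4.5 h and 20.5% at 7.5 h. On these means nearly the whole loss fell in the first 4.5 h. The 7.5 h control libraries had this gene's widest replicate gap, 0.59 log2, and no library without 4sU set a background rate. The slope over the whole chase was −0.27 log2 per hour in control (SE 0.0460, limma adjusted p = 2.66e-04) and −0.33 in knockdown (SE 0.0460, adjusted p = 3.28e-05). A straight line understates the early part of such a curve. The step from 0 to 1.5 h, a contrast added after the data were seen, was −0.85 log2 in control (SE 0.198, limma adjusted p = 0.118) and −1.10 in knockdown (SE 0.198, adjusted p = 0.0884). Neither passed, in a contrast where 0 of 10 members passed in either genotype (4 and 3 at an unadjusted p under 0.05) and where 0.0739% and 0.0554% of all tested genes did. Of all tested genes 13.2% had a step at least as steep in control and 4.66% in knockdown. Among the members, NFKB2 (−0.98, SE 0.388) and TNIP3 (−1.16, SE 1.20) had steeper fitted steps in control. The knockdown step passed with a pseudocount of 0.1 (−1.06, adjusted p = 0.0394) or with no CPM minimum (−1.10, adjusted p = 0.0407).

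The TNF-inducible survival genes lost label in steps that did not overlap for BIRC3. BIRC3 (ENSG00000023445, chr11:102317450-102339403) encodes cIAP2, a ubiquitin ligase that builds the TNF receptor signalling complex. Its rate in control was 0.899% and 1.03% at the start, 0.582% and 0.582% after 1.5 h, 0.279% and 0.397% after 4.5 h and 0.172% and 0.101% after 7.5 h. The knockdown libraries gave 1.81% and 1.67% at the start, 1.52% and 1.53% after 1.5 h, 0.677% and 0.769% after 4.5 h and 0.344% and 0.316% after 7.5 h. The 4 times stepped down in order in both genotypes. TNFAIP8 (ENSG00000145779, chr5:119268692-119399688) encodes an anti-apoptotic protein, the founding member of the TIPE family of lipid-binding proteins. In control it gave 0.858% and 0.873% at the start, 0.680% and 0.498% after 1.5 h, 0.194% and 0.265% after 4.5 h and 0.0744% and 0.194% after 7.5 h. In knockdown TNFAIP8 gave 2.37% and 2.50% at the start, 1.56% and 1.71% after 1.5 h, 0.702% and 0.613% after 4.5 h and 0.401% and 0.368% after 7.5 h. The control slopes were −0.32 for BIRC3 (SE 0.0287, limma adjusted p = 9.59e-07) and −0.33 for TNFAIP8 (SE 0.0328, adjusted p = 2.35e-06), with halving times of the rate plus pseudocount of 3.17 h and 3.07 h. In knockdown the slopes were −0.31 (SE 0.0287) and −0.34 (SE 0.0328), with halving times of 3.24 h and 2.92 h. The pseudocount lengthens all halving times given, more so at low rates. After centring both genes were lower than the common fall in both genotypes, BIRC3 by −0.18 and −0.16 log2 per hour and TNFAIP8 by −0.19 and −0.19. By 7.5 h control kept 14.2% of the 0 h mean for BIRC3 and 15.5% for TNFAIP8.

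TNFAIP3 (ENSG00000118503, chr6:137867188-137883312) encodes A20, a ubiquitin-editing enzyme that shuts off signalling upstream of IKK. Its rate in control was 0.633% and 0.863% at the start, 0.657% and 0.463% after 1.5 h, 0.339% and 0.214% after 4.5 h and 0.159% and 0.232% after 7.5 h. The knockdown libraries gave 1.69% and 1.36% at the start, 1.40% and 1.27% after 1.5 h, 0.897% and 0.788% after 4.5 h and 0.694% and 0.345% after 7.5 h. The 0 h and 1.5 h values overlapped in both genotypes. By 1.5 h the mean stood at 74.8% of its 0 h value in control and 87.7% in knockdown. NFKBIA stood at 53.1% and 45.5%, and this difference between the genes was not tested. The slopes were −0.23 in control (SE 0.0357, limma adjusted p = 1.00e-04) and −0.21 in knockdown (SE 0.0357, adjusted p = 2.36e-04). Centred, the control slope was −0.10 (adjusted p = 0.0455) and the knockdown slope −0.06 (adjusted p = 0.243).

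TNIP1 (ENSG00000145901, chr5:151029945-151093577) and TNIP3 (ENSG00000050730, chr4:121131408-121227466) encode ABIN-1 and ABIN-3, adaptors that bind ubiquitin chains and bring A20 to its substrates. The TNIP1 rate in control was 0.778% and 0.923% at the start, 0.567% and 0.423% after 1.5 h, 0.363% and 0.709% after 4.5 h and 0.345% and 0.287% after 7.5 h. The knockdown libraries gave 2.07% and 1.63% at the start, 1.17% and 1.03% after 1.5 h, 1.12% and 0.900% after 4.5 h and 0.635% and 0.654% after 7.5 h. Its slopes of −0.14 (SE 0.0367, limma adjusted p = 0.00583) and −0.17 (SE 0.0367, adjusted p = 0.00166) lay close to the common fall, with centred values of −0.01 and −0.02 that did not pass. TNIP3 was the least abundant member, at 9.74 CPM, and the most scattered. Its rate in control was 1.71% and 1.26% at the start, 0.396% and 0.982% after 1.5 h, 0 and 0.639% after 4.5 h and 0 and 0 after 7.5 h. The knockdown libraries gave 3.33% and 1.80% at the start, 0.351% and 3.66% after 1.5 h, 0.649% and 3.15% after 4.5 h and 0.600% and 0.580% after 7.5 h. Its fitted control slope of −0.65 (SE 0.130, limma adjusted p = 9.85e-04) rests on 3 libraries in which the gene was listed at 0 and so on the pseudocount, and its knockdown slope of −0.21 (SE 0.130, adjusted p = 0.208) did not pass.

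Among the subunits, NFKB1 (ENSG00000109320, chr4:102501329-102617302), which encodes p105 and its product p50, lost label faster than the common fall in knockdown. Its rate in control was 0.656% and 0.828% at the start, 0.560% and 0.516% after 1.5 h, 0.420% and 0.309% after 4.5 h and 0.295% and 0.166% after 7.5 h. With ALKBH5 knocked down the values were 1.72% and 1.78% at the start, 1.26% and 0.824% after 1.5 h, 0.638% and 0.506% after 4.5 h and 0.310% and 0.377% after 7.5 h. In both genotypes the groups stepped down in order without overlap. The slopes were −0.20 in control (SE 0.0304, limma adjusted p = 1.05e-04) and −0.28 in knockdown (SE 0.0304, adjusted p = 3.17e-06). Centred they were −0.06 (adjusted p = 0.166) and −0.13 (adjusted p = 0.00559).

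RELB (ENSG00000104856, chr19:45001430-45038198) and NFKB2 (ENSG00000077150, chr10:102394110-102402529) encode the dimer of the non-canonical pathway, RelB with p52, the latter cut from p100. RELB fell at −0.15 in control (SE 0.0386, limma adjusted p = 0.00686) and at −0.12 in knockdown (SE 0.0386, adjusted p = 0.0194), close to the common fall. In control its libraries gave 0.694% and 0.886% at the start, 0.694% and 0.493% after 1.5 h, 0.501% and 0.236% after 4.5 h and 0.291% and 0.415% after 7.5 h, and in knockdown 1.37% and 1.73% at the start, 1.22% and 1.55% after 1.5 h, 0.902% and 1.06% after 4.5 h and 0.923% and 0.725% after 7.5 h. The 7.5 h libraries lay below those of 0 h in both genotypes. The RELB knockdown call ended without knockdown 0 h replicate 2 (adjusted p = 0.0679) or knockdown 7.5 h replicate 2 (adjusted p = 0.0872). NFKB2 did not pass in either genotype. In control the values were 0.786% and 0.790% at the start, 0.595% and 0.230% after 1.5 h, 0.874% and 0.604% after 4.5 h and 0.448% and 0.478% after 7.5 h. Knockdown cells gave 1.26% and 1.26% at the start, 1.43% and 0.891% after 1.5 h, 0.654% and 0.860% after 4.5 h and 1.01% and 0.588% after 7.5 h. The times overlapped and had no steady order, with slopes of −0.04 in control (SE 0.0550, adjusted p = 0.648) and −0.10 in knockdown (SE 0.0550, adjusted p = 0.162).

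RELA (ENSG00000173039, chr11:65653596-65663094) encodes p65, the subunit that carries the main transactivation domain. Control libraries gave 0.214% and 0.862% at the start, 0.515% and 0.702% after 1.5 h, 0.717% and 0.377% after 4.5 h and 0.0458% and 0.206% after 7.5 h. In knockdown libraries it was 1.16% and 1.25% at the start, 1.16% and 1.25% after 1.5 h, 0.839% and 1.42% after 4.5 h and 0.712% and 1.08% after 7.5 h. The first 3 times overlapped in each genotype. The slope passed in control at −0.22 (SE 0.0761, limma adjusted p = 0.0312) and not in knockdown at −0.06 (SE 0.0761, adjusted p = 0.575). The control call ended without control 0 h replicate 2 (adjusted p = 0.103), control 1.5 h replicate 2 (0.0569), control 7.5 h replicate 1 (−0.10, adjusted p = 0.328) or control 7.5 h replicate 2 (0.0557), and with no CPM minimum (0.0600). RELA shares 9 bases with a long noncoding RNA gene on the opposite strand, and TNFAIP3 1046 bases with an antisense gene. TNFAIP8 overlaps RN7SL174P on the opposite strand (289 bases) and TNIP3 the small RNA gene RNU6-948P on the same strand (107 bases), where strand could not separate them. Whether the counting used strand is not given in the sources used here.

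**Figure D2:**
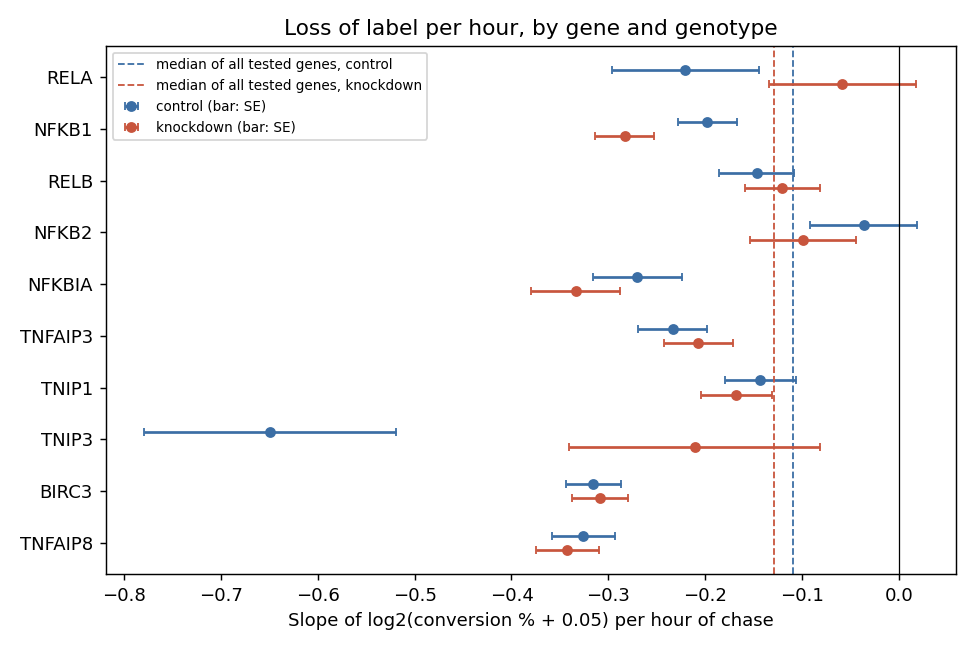
Slope of log2(conversion rate in percent + 0.05) per hour of chase for each member in control (blue) and knockdown (red), with bars of 1 SE and dashed lines at the median of all tested genes. BIRC3 and TNFAIP8 lie near −0.3 in both genotypes, NFKB2 lies nearest to 0 in control at −0.04, and TNIP3 has the widest bars.

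Ordered by the share of the 0 h mean kept at 7.5 h, the control members were BIRC3 (14.2%), TNFAIP8 (15.5%), NFKBIA (20.5%), RELA (23.4%), TNFAIP3 (26.1%), NFKB1 (31.1%), TNIP1 (37.2%), RELB (44.7%) and NFKB2 (58.7%), with TNIP3 listed at 0. In knockdown the order was NFKBIA (15.3%), TNFAIP8 (15.8%), BIRC3 (19.0%), NFKB1 (19.6%), TNIP3 (23.0%), TNFAIP3 (34.1%), TNIP1 (34.8%), RELB (53.3%), NFKB2 (63.4%) and RELA (74.4%). NFKB2 and RELB thus stood at the slow end in both genotypes and BIRC3, TNFAIP8 and NFKBIA at the fast end. Each share comes from 2 libraries over 2, and neighbours in these orders were not tested against each other. At 0 h the control means ran from 0.538% ± 0.458 (SD, n = 2) for RELA to 1.48% ± 0.325 (SD, n = 2) for TNIP3, and the other 8 lay between 0.742% for NFKB1 and 0.962% for BIRC3.

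AU-rich elements in 3′ UTRs, many of which hold ATTTA pentamers, are binding sites of proteins that speed up or slow down mRNA decay. Pentamers, alone or overlapping, were counted on the sense strand in the annotated 3′ UTR of 1 principal transcript per gene (GENCODE 29, GRCh38). A lone pentamer need not be such an element, and the 3′ ends used in THP-1 were not measured. Of the members, 6 held 3 or more pentamers, namely TNFAIP8 (17 in 6307 bases), TNFAIP3 (5 in 1992), BIRC3 (5 in 632), TNIP3 (4 in 1223), NFKBIA (3 in 502) and NFKB1 (3 in 708). NFKB2 held 1 in 148 bases, and RELA, RELB and TNIP1 held 0. Of 12139 tested coding genes 42.2% held 3 or more and 69.5% at least 1. Of the nonamer TTATTTATT, which contains the pentamer, only the site in TNFAIP3 is described here, which does not mean that the other members lack it; 9.26% of tested genes with a 3′ UTR within 25% of the length of TNFAIP3's hold it. The TNFAIP3 nonamer and the pentamers of NFKBIA, the member with the steepest early step in knockdown, are printed with the motif in capitals, 5′ to 3′ on the mRNA's strand. TNFAIP3 is shown at chr6:137882298-137882326 (plus strand), and the 3 sites of NFKBIA at chr14:35401910-35401938, chr14:35401699-35401727 and chr14:35401520-35401548 (minus strand), in mRNA order.
TNFAIP3: gtaattcactTTATTTATTttattacaaa
NFKBIA site 1: aaagaagaaaaaATTTAaagggtgtactt
NFKBIA site 2: accacattttatATTTAttgtgcttcgag
NFKBIA site 3: tttatgatgtatATTTAttaaacagattt

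The 6 members with 3 or more pentamers had control slopes from −0.65 to −0.20 and knockdown slopes from −0.34 to −0.21. The 3 members with 0 pentamers had control slopes from −0.22 to −0.14 and knockdown slopes from −0.17 to −0.06. The ranges overlap in control, through RELA, and do not overlap in knockdown. NFKB2, with 1 pentamer, had slopes of −0.04 in control, outside both ranges, and −0.10 in knockdown. Over all tested coding genes the median control slope was −0.07 with 0 pentamers, −0.12 with 1 to 2 and −0.17 with 3 or more. The knockdown medians were −0.09, −0.15 and −0.19. The median 3′ UTR grew from 330 to 776 and 2480 bases across these classes. The part of UTR length in this order of slopes was not tested. The sequence GGACT, a form of the m6A consensus, occurred once within 200 bases of the stop codon on either side in RELA, RELB, NFKBIA and TNIP1 and not in the other 6 (the NFKB2 window was cut to 348 bases by the transcript's end), while 37.1% of 10693 tested genes with a full window held it. A match is not a measured methylation site.

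The second question was whether the genotypes differed in level. Averaged over the chase, all 10 members had higher rates in knockdown, against 69.6% of all tested genes called higher (limma, adjusted p under 0.05). Called in either direction were 11325 of 16241 genes. With a CPM minimum of 5, which all 10 members exceed, these were 9084 of 10549 genes, a larger share, with 10 members among them. The effects were 0.71 log2 for NFKB2 (SE 0.218, adjusted p = 0.00958), 0.79 for NFKB1 (SE 0.133), 1.00 for TNIP1 (SE 0.119), 1.05 for BIRC3 (SE 0.116), 1.11 for NFKBIA (SE 0.102) and 1.15 for RELB (SE 0.152). They were 1.20 for TNFAIP3 (SE 0.148), 1.38 for TNFAIP8 (SE 0.121), 1.46 for RELA (SE 0.309) and 2.06 for TNIP3 (SE 0.631, adjusted p = 0.00923), the last with values listed at 0 in control. Their median was 1.13 against 1.02 over all tested genes. Both knockdown libraries lay above both control libraries for 10, 9, 9 and 10 members at 0, 1.5, 4.5 and 7.5 h, against 71.1%, 74.3%, 68.2% and 58.9% of all tested genes. The exceptions were TNIP3 at 1.5 h and NFKB2 at 4.5 h.

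Once each library was centred, which took a common 1.05 log2 from every effect, 0 of the 10 members passed in either direction by limma (1 at an unadjusted p under 0.05), against 1.45% of all tested genes called higher and 4.59% lower. The centred effects ran from −0.34 for NFKB2 (95% interval −0.80 to 0.12) to 0.42 for RELA and 1.01 for TNIP3. The member under an unadjusted 0.05 was TNFAIP8, at 0.33 (95% interval 0.08 to 0.58, limma adjusted p = 0.129), which passed without control 7.5 h replicate 2 (0.41, adjusted p = 0.0280). NFKBIA stood at 0.06 (−0.16 to 0.27) and BIRC3 at 0.00 (−0.24 to 0.24).

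**Figure D3:**
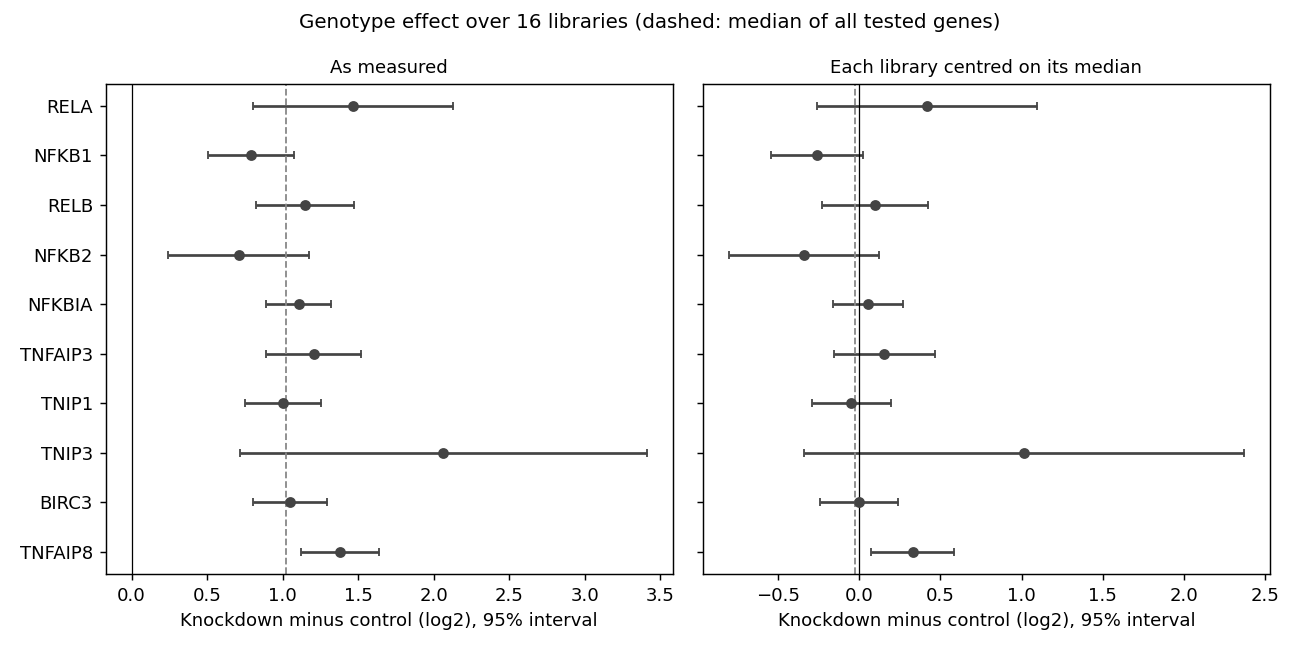
Knockdown minus control on the log2 scale over 16 libraries for each member, with 95% intervals, as measured (left) and with each library centred on its median (right); dashed lines mark the median of all tested genes. All 10 intervals lie above 0 on the left, and on the right those of all members but TNFAIP8 include 0.

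At single times the members called higher numbered 7, 8, 6 and 8 in order of chase time (limma; 35.6%, 38.9%, 38.3% and 33.5% of all tested genes). NFKBIA was 1.39 log2 higher at 0 h (SE 0.198, adjusted p = 4.36e-04), then 1.14 and 1.02, and 0.87 at 7.5 h (SE 0.198, adjusted p = 0.00651). RELA was 1.35 at 0 h (adjusted p = 0.0887) and 2.57 higher at 7.5 h (SE 0.580, adjusted p = 0.00622). The RELA rate in control 7.5 h replicate 1 was 0.0458%, below the pseudocount of 0.05, so the size of its 7.5 h effect rests in part on the pseudocount. With centring 0 of 10 passed at any of the 4 times by limma (0, 0, 1 and 2 at an unadjusted p under 0.05), against 0.548%, 0.511%, 0.727% and 1.1% of all tested genes in either direction. The single-time counts depend on single libraries, each of which leaves 1 library in its group that is assumed to vary like the others. At 0 h 3 members passed without replicate 1 of either genotype and 4 without replicate 2 of the knockdown. At 1.5 h the count was 3 without the second control library and 4 without the first knockdown library. At 7.5 h it was 5 without either control library or the second knockdown library and 4 without the first knockdown library. The NFKBIA effect at 7.5 h did not pass without control 7.5 h replicate 2 (0.57, adjusted p = 0.0510) or knockdown 7.5 h replicate 2 (0.68, adjusted p = 0.0577), and that of RELA not without control 7.5 h replicate 1 (1.86, adjusted p = 0.0519). RELA at 0 h passed without control 0 h replicate 2 (2.25, adjusted p = 0.0181).

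The third question was whether label was lost at a different rate in knockdown. By limma 0 of the 10 members and 0% of all tested genes passed for the slope difference, with 1 member and 1269 of 16241 genes at an unadjusted p under 0.05. For BIRC3 the knockdown slope minus the control slope was 0.01 log2 per hour (95% interval −0.08 to 0.09), for TNFAIP8 −0.02 (−0.11 to 0.08), for TNFAIP3 0.03 (−0.08 to 0.13), for TNIP1 −0.02 (−0.13 to 0.09), for RELB 0.03 (−0.09 to 0.14) and for NFKBIA −0.06 (−0.20 to 0.07). The slope difference was −0.09 (−0.18 to 0.01) for NFKB1, −0.06 (−0.23 to 0.10) for NFKB2 and 0.16 (−0.07 to 0.39) for RELA. TNIP3 had 0.44 (0.05 to 0.83, limma adjusted p = 0.578), which again rests on control values listed at 0.

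Beyond the members, 55 further pathway genes were listed by role, of which 53 were tested; TRAF5 fell under the CPM minimum and IRAK4 was not matched by symbol. In control 33 of the 53 fell and 0 rose; their median slope was −0.22 beside −0.11 over all tested genes, of which 34.4% fell. In knockdown 36 fell and 0 rose, against 37.9% of all tested genes falling. After centring 12 were lower and 4 higher in control (9.46% and 17.6% of all tested genes) and 11 and 3 in knockdown (8.62% and 17.7%). For the slope difference 0 passed, and the genotype effect passed for 48, all higher, before centring, against 69.6% of all tested genes. After centring 2 of 53 passed by limma, both lower, a share near the 4.59% of all tested genes called lower. They were REL at −0.56 (adjusted p = 0.0126; 0.49 higher before centring) and SOD2, a mitochondrial antioxidant enzyme, at −0.38 (adjusted p = 3.60e-04; 0.67 higher before centring). SOD2 was chosen for naming after its value was seen.

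REL, the fifth subunit, fell at −0.24 in control (SE 0.0471, limma adjusted p = 8.12e-04) and −0.27 in knockdown. The REL rates went from 1.12% and 1.33% at 0 h to 0.334% and 0.355% at 7.5 h in control, and from 1.98% and 1.98% to 0.450% and 0.481% in knockdown. Of 5 other IkB proteins 4 fell in control, among them NFKBIE, which encodes IkB-epsilon, at −0.29 and NFKBID, a nuclear IkB, at −0.67. The NFKBID slope in knockdown was −0.28 (adjusted p = 0.0407) and did not pass without any of 5 knockdown libraries (both of 0 h, both of 1.5 h, and 7.5 h replicate 2, with adjusted p up to 0.0980) or with a pseudocount of 0.02 (adjusted p = 0.0854) or no CPM minimum (adjusted p = 0.0770). Of 5 IKK and related kinase genes 4 fell, with IKBKB, the catalytic IKK-beta, at −0.29 (SE 0.0238) and TBK1, an IKK-related kinase of interferon signalling, at −0.33 (SE 0.0363).

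Upstream of IKK, 9 of 15 tested adaptor and kinase genes fell in control, among them MAP3K7, the kinase TAK1 that activates IKK, at −0.30 (SE 0.0254) and TRAF3, an adaptor that restrains the non-canonical pathway, at −0.27 (SE 0.0269). Of 5 receptors 2 fell, TNFRSF1B at −0.17 and TNFRSF1A at −0.15, the receptors of TNF, which is near the 34.4% of all tested genes that fell. That share is the background for each of these role counts, which are small. The TNFRSF1A call ended without control 0 h replicate 2 (−0.10, adjusted p = 0.0973) or control 7.5 h replicate 1 (adjusted p = 0.0705) and that of TNFRSF1B without control 7.5 h replicate 1 (adjusted p = 0.0931). Of 10 other negative regulators 6 fell, with N4BP1 at −0.36 (SE 0.0421) and IRAK3, an inhibitory relative of the IRAK kinases, at −0.22 (SE 0.0347). Of 12 target genes 7 fell, with the cytokine TNF at −0.35 (SE 0.0408) and TNFAIP2, another TNF-induced gene, at −0.20 (SE 0.0265). In knockdown the slopes of these genes were −0.35 for NFKBIE, −0.29 for IKBKB, −0.33 for TBK1, −0.28 for MAP3K7, −0.29 for TRAF3, −0.24 for TNFRSF1B, −0.25 for TNFRSF1A, −0.27 for N4BP1, −0.26 for IRAK3, −0.31 for TNF and −0.12 for TNFAIP2, all past the threshold.

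**Figure D4:**
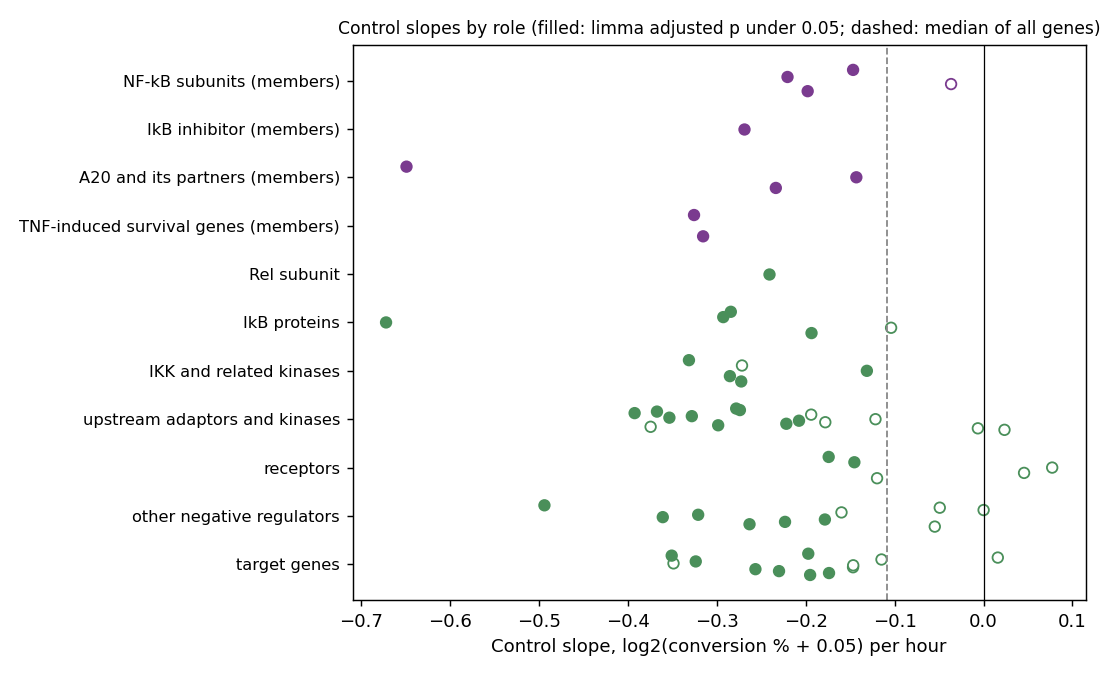
Control slope in log2(conversion rate in percent + 0.05) per hour for the members (purple) and the further pathway genes (green), one row per role; filled points passed limma at adjusted p under 0.05, the dashed line is the median of all tested genes at −0.11. Filled points all lie left of 0, NFKBID at −0.67 and TNIP3 at −0.65 lie furthest left, and 2 of 5 receptors are filled.

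The genes whose 16 log2 rates ran most like those of NFKBIA, among 8116 tested genes at or above the median abundance of 9.66 CPM, were SCMH1 (Pearson r 0.988), UTRN (0.987) and VPS13B (0.986). For RELA they were a gene listed without a symbol (ENSG00000261377, PDCD6IPP2 in the gene name table, a pseudogene whose reads may be shared with its parent) at 0.929, DPF2 at 0.921 and HPS1 at 0.917. All genes share the genotype shift and the fall over the chase, so the median r over these genes was already 0.699 with NFKBIA and 0.620 with RELA, and the values are a description. Replicate scatter differed among the members. The median gap between the 2 replicates of a group was 0.25 log2 for NFKBIA at 422.5 CPM and 1.04 log2 for TNIP3 at 9.74 CPM, while RELA at 22.9 CPM had 0.64 and BIRC3 at 33.0 CPM had 0.14.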

How the data were processed

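Conversion rates were analysed for 10 genes in 16 SLAM-seq libraries of THP-1 cells. The deposited table gives a fraction between 0 and 1 per gene and library, read here as converted over sequenced T bases from the values and the assay, since no header names it. The submitters' processing notes name HISAT2 2.1.0, CASAVA and the build hg38. Conversion caller, variant masking and annotation: not given in the sources used here. The authors' columns beginning with C were taken as control and those with S as knockdown by elimination. Abundance is given once per gene, as CPM per the file headers, from a library that is not named; all its values under 1000 reads were whole reads at a step of 0.0265 within a tolerance of 0.1, and with 1 column no count test could be run. It served to filter genes (at least 1 CPM and a rate above 0 in any library) and to set the variance trend. The deposited gene length was not used.

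Rates in percent plus 0.05 were put on the log2 scale and fitted over all tested genes in R 4.3.3 by limma 3.58.1, with variances moderated along log2(CPM + 0.01). p-values were adjusted by Benjamini and Hochberg's method (threshold 0.05), with no replicate block. The genotype effect was fitted with time as a factor, slopes with an intercept and slope per genotype, and single times from 8 group means. The script was tested on simulated data. No library without 4sU was used here. Members and lists were chosen with earlier results of these data known. Every member is named; of the further pathway genes REL and up to 2 per role with the smallest adjusted p for the control slope are named, and 3 genes most like NFKBIA and RELA. Alternatives were other pseudocounts and CPM minimums, no variance trend, a replicate block and leaving out each library. A further 3′ UTR site is not reported here.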

Additional observations from a re-analysis of the deposited data

How the results depend on the processing

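Among 22 alternatives (16 of which leave out 1 library), the values of named genes kept direction and side of the threshold in 560 cases for the 6 other alternatives and in 1529 with 1 library left out. They lost a call in 11 and 34, gained one in 6 and 2 and changed sign in 15 and 19. The depth behind each rate is unknown, and no limit from it can be given.

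With no CPM minimum 37510 genes were tested, of which 30.5% to 50.6% were listed at 0 per library, so that centring used medians as low as 0. The centred genotype effect then was −0.27 for RELA, −0.59 for RELB, −0.63 for NFKBIA, −0.53 for TNFAIP3, −0.69 for BIRC3 and −0.36 for TNFAIP8. The centred control slope was 0.050 for RELA, 0.073 for NFKB1, 0.12 for RELB, 0.00063 for NFKBIA, 0.037 for TNFAIP3 and 0.13 for TNIP1. Centred, 3 members were called for the genotype effect (5781 genes), 1 for the control slope, 1 for the knockdown slope (1653 genes) and 8 for the genotype effect at 7.5 h (7511 genes), with 17, 19 and 7 genes at 0, 1.5 and 4.5 h. For the step from 0 to 1.5 h, 36 genes were called in control and 139 in knockdown, with 1 member in knockdown.

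With a pseudocount of 0.1 the BIRC3 slope difference was −0.011 and its centred genotype effect −0.0073, the step in knockdown was called for 24 genes and 1 member, and the centred genotype effect for 182 genes at 0 h and 167 at 1.5 h. With a CPM minimum of 5 (10549 genes) the BIRC3 centred effect was −0.010, the step was called for 44 genes in control and 20 in knockdown, and the centred effect at 0 h for 140. Without the variance trend 1 gene was called for the slope difference, 3 members for the centred control slope, 2 and 3 genes for the steps, and 4, 16, 6 and 86 genes for the centred effect at 0, 1.5, 4.5 and 7.5 h. The cause of these changes was not tested.

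With 1 library left out, genes called for the genotype effect ranged from 3331 to 6430 at 0 h (members 3 to 7), from 3737 to 6943 at 1.5 h (members 3 to 8) and from 4080 to 6912 at 4.5 h, and members at 7.5 h from 4 to 8. Centred, they ranged from 42 to 106, 51 to 94, 39 to 142 and 62 to 226 genes at the 4 times. The step was called for 2 to 18 genes in control and 0 to 11 in knockdown, the slope difference for 0 to 2 genes with or without centring, the centred genotype effect for 0 to 1 members and the centred control slope for 3 to 5. Ranges that crossed 0 were the BIRC3 slope difference (−0.024 to 0.032) and the centred genotype effects of BIRC3 (−0.061 to 0.044), RELB (−0.0088 to 0.17) and TNIP1 (−0.11 to 0.040). So did the centred control slopes of RELA (−0.18 to 0.038), RELB (−0.046 to 0.0085) and TNIP1 (−0.026 to 0.013) and the centred knockdown slope of TNIP1 (−0.033 to 0.011).

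No pairing of libraries by replicate number was detected: same-numbered deviations over all tested genes correlated between −0.0239 and 0.0396 over 28 pairs of groups, and 0 exceeded 0.1. Noise in single rates could hide a pairing, and the labels do not say how same-numbered libraries were handled. With a replicate block the step in control was called for 2 genes in place of 12. The block left 10 members called for the genotype effect, 9 for the control slope, 7 for the knockdown slope and 0 for the slope difference, and 6, 8, 7 and 8 at the 4 times.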
